A study of Mus musculus with 8 samples.

Results

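Genes of the lysosome and of the proton pump that acidifies it were followed in mouse CD4 T cells with and without Gpr65. They were 44 of the 16649 genes in the deposited matrix: the 22 symbols that start with Atp6v or Atp6ap, and 22 named lysosomal genes. The named genes are 7 cathepsins, 7 lysosomal membrane proteins, 6 other proteins of the lysosomal lumen and the regulators Tfeb and Tfe3. Of the 44, 41 passed the filter on low counts and were tested among 13412 genes.

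The cells were splenic CD4 T cells of female mice aged 10 weeks, with GPR65 given as the strain, polarized in culture and collected on day 3. Each genotype, Gpr65_WT (WT) and Gpr65_KO (KO), was cultured toward Th17 with IL-1b at 20 ng/ml, IL-6 at 25 ng/ml and IL-23 at 20 ng/ml, or toward Th22 with IL-1b at 20 ng/ml, IL-6 at 40 ng/ml, IL-23 at 20 ng/ml and 400 nM FICZ, which activates the aryl hydrocarbon receptor. The 2 conditions therefore differed in FICZ and in IL-6 dose together. Each of the 4 groups had 2 single-cell RNA libraries, so each side of a comparison over both polarizations or both genotypes had 4. Same-numbered Th17 and Th22 libraries of a genotype deviated together, so the 4 libraries of a genotype may amount to fewer independent samples. The labels do not say how the Gpr65 allele was made, or whether the 2 libraries of a group came from separate animals or cultures. A p-value here therefore sets a difference only against the variation among these libraries, which may be technical. The series was designed to compare WT with KO, and for these genes the comparison asks whether loss of a proton-sensing receptor goes with a change in the transcripts of acidic organelles.

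The vacuolar ATPase (V-ATPase) pumps protons into lysosomes and endosomes. Its V1 sector in the cytosol hydrolyses ATP, its V0 sector in the membrane carries the protons, and the accessory proteins Atp6ap1 and Atp6ap2 take part in its assembly. The low pH lets cathepsins and other hydrolases work, and the transcription factors TFEB and TFE3 bind E-box sites in the promoters of many lysosomal genes. Gpr65 is a G protein-coupled receptor of the cell surface that responds to protons outside the cell.

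The library labels held for the targeted gene. Gpr65 (chr12:98268635-98276644, plus strand, mm10) stood at 63.1 ± 11.1 CPM (SD, n = 4) in WT and at 1.25 ± 0.370 in KO, a log2 fold change of -5.68 ± 0.10 (SE) with an adjusted p of 1.311e-08 in edgeR's quasi-likelihood test. CPM are counts of unique molecular identifiers (UMIs), each tagging 1 captured mRNA at its 3' end, per 1000000 UMIs of a library, with library totals scaled. They are not scaled by transcript length. How well each gene is captured was not measured, so levels of different genes compare only roughly. The libraries held 9969 to 15119 kept cells and 33826527 to 58895019 UMIs, with medians of 2354 to 4142 UMIs per cell. Of 100483 distinct cell barcodes, 1199 (1.19%) occurred in more than 1 library. The summed CD4 T cell markers reached 5219 to 6106 CPM in WT and 4489 to 5798 in KO, and 4489 to 5399 in Th17 against 5714 to 6106 in Th22, with 1 of the 11 called lower in KO and 2 higher in Th22. Summed stromal and endothelial markers, led by Pecam1, were 21.5 to 26.0 CPM in WT and 13.1 to 19.4 in KO, with 1 of 3 tested called lower in KO. Summed B cell markers, led by Ighm, were 36.3 to 48.7 CPM in WT and 27.1 to 37.25 in KO. Of 5 tested, 1 was called lower in KO. The part of these shifts in the members' values was not tested. Of 18 myeloid markers, 9 were measured and 7 of these averaged under 1 CPM, Csf1r and Cd14 among them. Their sum was 21.8 to 29.1 CPM in WT and 23.0 to 35.5 in KO and was led by Cd68, which is itself a lysosomal protein, at 23.2 CPM.

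Promoters of some members are shown because TFEB and TFE3 bind the palindrome TCACGTGA, which contains the E-box core CACGTG. Windows of 300 bases, 250 before and 50 after each RefSeq start on GRCm38.p6, were searched; both motifs read the same on both strands. Windows were given for 36 of the 44 members, 44 windows in all, and not for Atp6v0a2, Atp6v0d2, Atp6v1b2, Atp6v1c1, Atp6v1g1, Atp6v1h, Ctsb and Npc1. TCACGTGA lay in 6 of the 44 windows (13.6%), against 0.974% of all 32851 windows. CACGTG, which counts those windows too, lay in 10 (22.7%), against 7.15% of all. The 6 members with TCACGTGA were Ctsa, Ctsd, Mcoln1, Atp6v0d1, Atp6v1a and Atp6v0e. The sites are given here 5' to 3' on the gene's strand, with the 8-letter motif in capitals and 6 bases on each side.
Ctsa, upstream site: aaactgTCACGTGAtgcaga
Ctsa, downstream site: agatgcTCACGTGAccagag
Ctsd: cgcgtcTCACGTGAcccgtt
Mcoln1: ccccgcTCACGTGAccgcgg
Atp6v0d1: ctgcggTCACGTGAgacgcg
Atp6v1a: tttaaaTCACGTGAtaggct
Atp6v0e: cgccgaTCACGTGAgcctct

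The motif began 13 bases before the start in Ctsa and again 4 bases after it, 99 before it in Ctsd, 46 before it in Mcoln1, 4 before it in Atp6v0d1, 132 before it in Atp6v1a and 2 after it in Atp6v0e. Whole windows follow for the 3 members that passed a test over all cells (Ctsc in KO against WT, Ctsa and Atp6v1a in Th22 against Th17). They also follow for Atp6v0b and Ctsd, 2 of the members that passed it within a cluster. Ctsz, Ctss, Lamp1, Npc2 and Cd63 passed it within a cluster too, and their windows are not printed. Of these, only Lamp1 holds CACGTG, and none holds TCACGTGA. Capitals mark TCACGTGA, or CACGTG where the outer letters differ. Ctsa has 2 RefSeq starts, and only the window of the downstream one, which lies inside the gene's GENCODE span, holds the motif and is printed. The TCACGTGA windows of Atp6v1a and Atp6v0e (chr17:26676146-26676445) also lie wholly inside the GENCODE spans of their genes. Those of Ctsd, Mcoln1 and Atp6v0d1 partly overlap theirs. The distances above are from RefSeq starts.
Ctsc, chr7:88277835-88278134, plus strand: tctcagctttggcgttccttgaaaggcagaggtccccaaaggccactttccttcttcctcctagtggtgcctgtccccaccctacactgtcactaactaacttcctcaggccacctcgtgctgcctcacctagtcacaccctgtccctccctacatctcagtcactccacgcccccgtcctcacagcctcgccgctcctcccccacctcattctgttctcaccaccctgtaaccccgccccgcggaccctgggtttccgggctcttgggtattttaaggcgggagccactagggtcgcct
Ctsa, chr2:164833523-164833822, plus strand: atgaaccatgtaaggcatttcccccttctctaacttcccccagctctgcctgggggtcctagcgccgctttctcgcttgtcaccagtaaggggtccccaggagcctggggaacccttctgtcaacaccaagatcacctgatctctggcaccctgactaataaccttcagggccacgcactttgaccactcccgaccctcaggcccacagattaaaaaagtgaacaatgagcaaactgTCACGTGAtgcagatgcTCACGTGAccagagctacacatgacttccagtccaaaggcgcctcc
Atp6v1a, chr16:44139210-44139509, minus strand: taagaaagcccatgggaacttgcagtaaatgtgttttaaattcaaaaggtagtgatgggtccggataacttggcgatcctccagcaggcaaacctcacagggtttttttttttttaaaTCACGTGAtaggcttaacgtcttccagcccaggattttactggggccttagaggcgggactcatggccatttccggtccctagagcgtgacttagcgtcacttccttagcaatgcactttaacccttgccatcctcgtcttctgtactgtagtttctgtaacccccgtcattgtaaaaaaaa
Atp6v0b, chr4:117887280-117887579, minus strand: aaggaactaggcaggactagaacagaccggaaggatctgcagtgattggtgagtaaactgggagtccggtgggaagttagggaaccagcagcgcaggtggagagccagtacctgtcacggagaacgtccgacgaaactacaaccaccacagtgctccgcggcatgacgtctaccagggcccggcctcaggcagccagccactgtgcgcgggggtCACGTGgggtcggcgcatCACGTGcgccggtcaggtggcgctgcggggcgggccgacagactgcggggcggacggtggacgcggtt
Ctsd, chr7:142387778-142388077, minus strand: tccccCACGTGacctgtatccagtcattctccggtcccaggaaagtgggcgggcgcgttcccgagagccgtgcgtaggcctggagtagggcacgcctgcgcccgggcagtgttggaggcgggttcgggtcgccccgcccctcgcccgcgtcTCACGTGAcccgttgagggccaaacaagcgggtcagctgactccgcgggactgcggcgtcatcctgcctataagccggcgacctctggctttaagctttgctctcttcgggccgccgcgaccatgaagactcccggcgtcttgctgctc

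Neither motif is written in the Ctsc window. Atp6v0b has CACGTG at 2 places without the outer letters, and Ctsd has it once beside its full palindrome. Ctsa and Atp6v1a both hold the full palindrome. Whether TFEB or TFE3 acted through any of these sites here was not tested.

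Across genotypes, the lysosomal transcripts differed little in amount. In KO against WT over both polarizations, 1 of the 41 tested members passed edgeR's test, Ctsc, which was higher in KO. The background was 2.93% of all genes called. With each same-numbered Th17 and Th22 pair of a genotype summed into 1 sample, no member was called (0.0431% of all genes called). Of the 41, 25 had a positive and 16 a negative log2 fold change, the median was 0.08 against -0.00 over all genes, and 40 lay within 0.5 of 0. An unadjusted p under 0.05 was reached by 13 members (31.7%) and by 19.4% of all genes. The libraries of the 2 genotypes did not overlap for 9 members (21.95%), against 10.8% of all genes. KO lay above WT for Atp6ap1, Atp6v0c, Atp6v1c1, Ctsb, Ctsc and Ctsd, and below it for Atp6v0d2, Ctss and Mcoln1. The summed level of all 44 members ranged from 3559 to 4077 CPM over the 8 libraries, lowest in KO Th17 replicate 2 and highest in WT Th17 replicate 2. Npc2 alone held 775 to 1168 CPM of it, and without Npc2 the sum ran from 2673 in KO Th22 replicate 2 to 3038 in KO Th17 replicate 1.

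**Figure D1:**
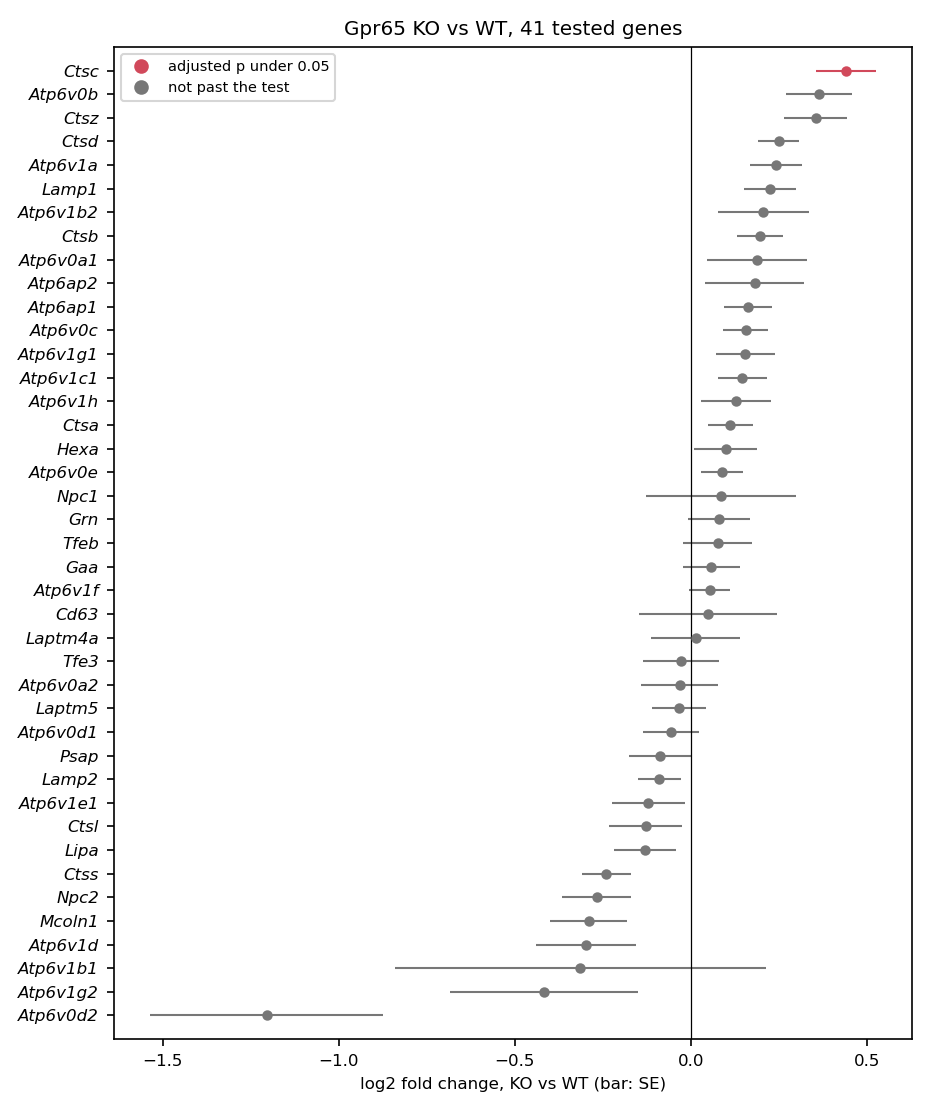
Log2 fold change of KO over WT, over both polarizations, for the 41 tested members, with bars for 1 standard error and red for an adjusted p under 0.05. Ctsc at 0.44 is the only red point, Atp6v0d2 at -1.21 lies farthest from 0, and 25 of the 41 points are positive.

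Ctsc encodes cathepsin C, the dipeptidyl peptidase that activates granzymes and other granule serine proteases (chr7:88278085-88310888, plus strand, ENSMUSG00000030560). It stood at 11.2 and 11.8 CPM in the WT Th17 libraries and 11.7 and 11.3 in WT Th22, against 13.8 and 15.6 in KO Th17 and 15.7 and 17.5 in KO Th22 (replicates 1 and 2). All 4 KO libraries were above all 4 WT libraries, with means of 15.7 ± 1.49 and 11.5 ± 0.284 CPM (SD, n = 4). The log2 fold change was 0.44 ± 0.08 (SE), a ratio of 1.36, with an adjusted p of 0.0325 in edgeR's test. Of 21 alternatives, 10 took Ctsc over the threshold. Among them was the sum of libraries of 1 genotype and number (adjusted p = 0.415, with 0.0431% of all genes called). The replicate block, which for KO against WT matches same-numbered KO and WT libraries within a polarization, gave 0.130. Ctsc missed the threshold too with cells thinned to 1500 UMIs (0.0690) and in the fit without the cells richest in UMIs (0.0578). It also missed it without replicate 1 or 2 of WT Th17 (adjusted p = 0.123 and 0.0772), replicate 2 of KO Th17 (0.0657), replicate 1 or 2 of WT Th22 (0.0965 and 0.147) or replicate 2 of KO Th22 (0.0667), while the log2 fold change stayed between 0.40 and 0.49. Without the 890 cells with 2 or more myeloid marker UMIs it was 0.44, with an adjusted p of 0.0298. Summed markers of gamma-delta and cytotoxic cells, which use cathepsin C, were 35.7 to 62.0 CPM in WT and 29.8 to 69.7 in KO, and without clusters 7, 9 and 11 the log2 fold change was 0.44 (adjusted p = 0.0342). Ctsc overlaps Gm26522 on the other strand, and no source used here says whether the counting used strand.

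The other cathepsins were not called over all cells, and 5 of the 7 had a positive fold change (median 0.20). Ctsd, the main aspartic protease of lysosomes, stood at 88.0 and 84.2 CPM in WT Th17, 92.3 and 92.2 in WT Th22, 104 and 101 in KO Th17 and 108 and 111 in KO Th22. Every KO library was above every WT library, and its log2 fold change was 0.25 ± 0.06 (adjusted p = 0.0589, edgeR). Ctsz, the carboxypeptidase cathepsin Z, stood at 74.7 and 63.0 CPM in WT Th17, 64.4 and 56.9 in WT Th22, 80.5 and 95.8 in KO Th17 and 74.5 and 80.2 in KO Th22. Its groups overlapped only where KO Th22 replicate 1 lay just under WT Th17 replicate 1, and its log2 fold change was 0.35 ± 0.09 (adjusted p = 0.0699). Ctss, cathepsin S, which cleaves the invariant chain in antigen-presenting cells, had the opposite sign. It stood at 86.4 to 97.9 CPM in the 4 WT libraries and 73.2 to 82.3 in the 4 KO libraries, a log2 fold change of -0.24 ± 0.07 (adjusted p = 0.1002). In DESeq2, which called 7.02% of all genes, 5 members passed: Ctsc, Ctsd, Ctsz and Atp6v0b higher and Ctss lower in KO.

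Among the V-ATPase genes, 19 of 22 were tested, none was called in KO against WT, and 12 had a positive fold change (median 0.13). Atp6v0d2 encodes the d2 isoform of the V0 subunit that joins the proton ring to the central stalk, an isoform best known from osteoclasts (chr4:19876841-19922605, minus strand, ENSMUSG00000028238). It stood at 77.0 and 109 CPM in WT Th17 and 74.4 and 91.2 in WT Th22, against 48.5 and 20.8 in KO Th17 and 60.2 and 23.5 in KO Th22. All 4 KO libraries lay below all 4 WT libraries, but replicate 1 of the KO stood 2.33 times above replicate 2 in Th17 and 2.56 times in Th22. The log2 fold change was -1.21 ± 0.33 (SE), and with this spread the adjusted p was 0.0880 in edgeR's test. It was -1.43 ± 0.50 in Th17 (adjusted p = 0.317) and -0.99 ± 0.49 in Th22 (adjusted p = 0.485). Without replicate 1 of KO Th22 it was -1.58 with an adjusted p of 0.0190, so that 1 library moved it across the threshold. Leaving out any other library gave adjusted p of 0.119 to 0.260. Of 21 alternatives, 19 left Atp6v0d2 uncalled, among them DESeq2 (0.064), the replicate block (0.185) and libraries of 1 genotype and number summed (0.516). The other call came with the numbers crossed between KO and WT (0.0101), added after the data were seen.

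The ubiquitous isoform of the same subunit, Atp6v0d1, was level. It stood at 46.8 and 47.5 CPM in WT Th17, 53.7 and 51.1 in WT Th22, 48.8 and 46.0 in KO Th17 and 52.6 and 43.8 in KO Th22, a log2 fold change of -0.06 ± 0.08 (adjusted p = 0.753). The groups overlapped. Atp6v0d2 therefore made up 62.2% and 69.7% of the d-subunit UMIs in WT Th17, 58.1% and 64.1% in WT Th22, 49.8% and 31.2% in KO Th17 and 53.4% and 34.9% in KO Th22. The d2 share thus ran from 58.1% to 69.7% in WT and from 31.2% to 53.4% in KO, without overlap. The a subunit did not show such a split: Tcirg1 (a3, looked up after its values were seen) held 31.3% to 35.0% of the a-subunit UMIs, Atp6v0a2 36.5% to 46.6% and Atp6v0a1 21.5% to 30.1%. Tcirg1 itself stood at 7.36 to 9.64 CPM, with a log2 fold change of 0.09 ± 0.09 (adjusted p = 0.634).

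The same Atp6v0d2 UMIs were also read as the share of cells with the transcript. This is no separate result from its level, and it was not tested. With every cell thinned to 1500 UMIs, an Atp6v0d2 UMI was found in 10.0% and 12.7% of cells in WT Th17 and 9.21% and 10.5% in WT Th22, against 7.07% and 3.14% in KO Th17 and 7.31% and 2.72% in KO Th22. Unthinned, the shares were 14.9% and 23.3%, 15.0% and 20.8%, 10.9% and 4.98%, and 16.4% and 6.28% in the same order. The genotypes did not overlap in the thinned shares. In the unthinned shares KO Th22 replicate 1, the deepest library per cell at a median of 4142 UMIs, lay above both replicates 1 of WT. No cell type here is known to lack the gene. The lowest thinned shares among the 2 large clusters were those of cluster 1, at 1.30% to 4.05% over the 8 libraries.

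**Figure D2:**
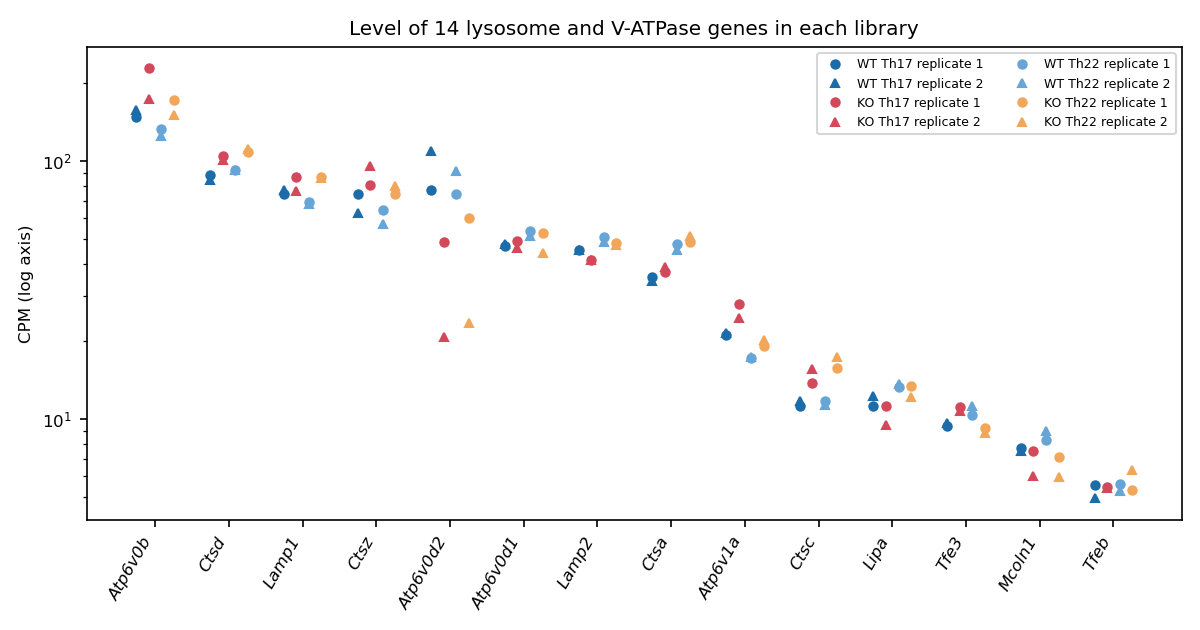
Level in CPM, on a log axis, of 14 members in each of the 8 libraries, with circles for replicate 1, triangles for replicate 2, blues for WT and red and orange for KO. The KO points of Atp6v0d2, at 20.8 to 60.2 CPM, lie under its WT points, at 74.4 to 109 CPM, and the Th22 points of Ctsa lie above its Th17 points in both genotypes.

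Atp6v0b, which encodes the c'' subunit of the V0 proton ring, had the largest positive value of the V-ATPase genes (chr4:117884326-117887333, minus strand). It stood at 148 and 157 CPM in WT Th17, 133 and 125 in WT Th22, 228 and 174 in KO Th17 and 173 and 151 in KO Th22. KO Th22 replicate 2 fell below WT Th17 replicate 2, so the sides overlapped over both polarizations, although KO lay above WT within each. The log2 fold change was 0.36 ± 0.09 (adjusted p = 0.0757). Atp6v0b overlaps Gm12841 on the other strand. Atp6v0c, the c subunit of the same ring, had 0.16 ± 0.06 (adjusted p = 0.226), with every KO library above every WT library. The V1 subunits ran from -0.42 for Atp6v1g2, a neuronal isoform with 445 UMIs in all, to 0.24 for the catalytic subunit Atp6v1a, and the accessory genes Atp6ap1 and Atp6ap2 had 0.16 and 0.18. The summed V0 subunits reached 642 to 764 CPM and the summed V1 subunits 782 to 939, in both cases highest in KO Th17 replicate 1. Atp6v0e2, Atp6v1fnb and Atp6v1g3 had 6, 4 and 3 UMIs in all kept cells and were not tested. Atp6v1fnb is a neighbour of Atp6v1f in name and no subunit of the pump. Atp6v1b1, the B subunit of kidney and inner ear, had 51 UMIs, and its relative Atp6v1b2 15.7 to 25.8 CPM.

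Lysosomal membrane and lumen proteins other than cathepsins had no call in KO against WT. Lamp1, one of the abundant glycoproteins of the lysosomal membrane, stood at 74.4 and 76.8 CPM in WT Th17, 69.1 and 68.0 in WT Th22, 86.8 and 76.7 in KO Th17 and 86.9 and 86.0 in KO Th22. KO Th17 replicate 2 fell among the WT libraries, and the log2 fold change was 0.22 ± 0.07 (adjusted p = 0.145). Mcoln1, the calcium channel TRPML1, stood at 7.76 and 7.52 CPM in WT Th17, 8.29 and 9.02 in WT Th22, 7.5 and 6.03 in KO Th17 and 7.12 and 5.99 in KO Th22. All KO libraries were lower, KO Th17 replicate 1 only just, with a log2 fold change of -0.29 ± 0.11 (adjusted p = 0.192). Npc2, which binds cholesterol in the lumen and passes it to Npc1, was the most abundant member, at 775 to 1168 CPM and with a UMI in 91.7% of cells. Its log2 fold change was -0.27 ± 0.10 (adjusted p = 0.179). In WT it reached 969 to 1168 CPM, and in KO 775 and 827 in Th17 and 880 and 1012 in Th22, so only KO Th22 replicate 2 reached the WT range. The regulators had no call. Tfeb stood at 5.57, 4.94, 5.63 and 5.26 CPM in the WT libraries and 5.46, 5.39, 5.32 and 6.37 in the KO libraries, a log2 fold change of 0.08 ± 0.10 (adjusted p = 0.733). Tfe3 stood at 9.38, 9.66, 10.4 and 11.2 CPM in WT and 11.2, 10.8, 9.24 and 8.83 in KO, a log2 fold change of -0.03 ± 0.11 (adjusted p = 0.915); in each list the Th17 values come before the Th22 values. Tfe3 went in opposite directions in the 2 polarizations, without overlap in either: the log2 fold change was 0.20 ± 0.11 in Th17 (adjusted p = 0.507) and -0.26 ± 0.11 in Th22 (adjusted p = 0.421).

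Within single polarizations no member passed edgeR's test. The background was 0.186% of all genes called in KO against WT in Th17 and 0.149% in Th22. An unadjusted p under 0.05 was reached by 8 members (19.5%) in Th17, against 12.2% of all genes, and by 10 (24.4%) in Th22, against 11.7%. DESeq2 called no member in either polarization (1.54% and 1.07% of all genes called). The replicate block called none either (0.0149% and 0.00746%), and none over both polarizations (0.373%). For KO against WT this block matches same-numbered KO and WT libraries, whose deviations correlated negatively (-0.205 in Th17 and -0.247 in Th22). The difference between the polarizations in the genotype effect was tested as an interaction. No gene passed (0.00% called), and the lowest unadjusted p among members was 0.01906, for Tfe3, with an adjusted p of 0.977. Atp6v1e1 and Npc2 also had an unadjusted p under 0.05, which makes 3 members (7.32%) against 4.22% of all genes, and DESeq2 called no member (0.0895% of all genes called).

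Between Th22 and Th17 over both genotypes, 2 of the 41 members passed edgeR's test, Ctsa higher and Atp6v1a lower in Th22, against 1.94% of all genes called. The member median was -0.00077 and that of all genes 0.0044, with 20 positive and 21 negative. DESeq2 called the same 2 members (4.12% of all genes called). Replicate numbers correlated between Th17 and Th22 libraries of a genotype, so a paired fit with the number as a block was also made. It called 9 of the 41 members (21.95%), with 11.9% of all genes called. Ctsa (0.40), Lipa (0.25) and Lamp2 (0.17) were higher in Th22. Cd63 (-0.52), Atp6v1a (-0.36), Atp6v0b (-0.27), Npc1 (-0.26), Atp6v1g1 (-0.22) and Ctsz (-0.18) were lower. The libraries of the sides did not overlap for 3 members (7.32%), against 6.59% of all genes: Ctsa and Lamp2 lay above and Atp6v1a below.

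Ctsa encodes cathepsin A, the serine carboxypeptidase that also protects neuraminidase and beta-galactosidase in the lysosome (chr2:164832873-164841032, plus strand, ENSMUSG00000017760). It stood at 35.6 and 34.2 CPM in WT Th17 and 37.2 and 38.7 in KO Th17, against 47.7 and 45.1 in WT Th22 and 48.6 and 51.0 in KO Th22. The sides were 36.5 ± 1.95 and 48.1 ± 2.43 CPM (SD, n = 4), and all 4 Th22 libraries lay above all 4 Th17 libraries. The log2 fold change was 0.40 ± 0.06, a ratio of 1.32, with an adjusted p of 0.0188 in edgeR's test and 0.000569 in the paired fit. The log2 fold change was 0.41 ± 0.09 in WT and 0.39 ± 0.09 in KO, with an interaction of -0.02 ± 0.13 (adjusted p = 1.0). It was 0.31 (adjusted p = 0.0862) when scaled by library totals alone. It missed the threshold without replicate 1 or 2 of WT Th17 (adjusted p = 0.0939 and 0.0756), replicate 1 of KO Th17 (0.0596), or replicate 1 or 2 of WT Th22 (0.0812 and 0.0925). The summed myeloid markers were 21.8 to 29.1 CPM in Th17 and 27.2 to 35.5 in Th22; without the cells with myeloid marker UMIs the log2 fold change was 0.40 (adjusted p = 0.0183). Ctsa overlaps Pltp and Neurl2 on the other strand.

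Atp6v1a encodes the A subunit of V1, which hydrolyses ATP (chr16:44085402-44139705, minus strand, ENSMUSG00000052459). It stood at 21.1 and 21.6 CPM in WT Th17 and 27.8 and 24.6 in KO Th17, against 17.3 and 17.4 in WT Th22 and 19.2 and 20.2 in KO Th22. All Th22 libraries were below all Th17 libraries. The log2 fold change was -0.36 ± 0.07, with an adjusted p of 0.0475 in edgeR's test and 0.00461 in the paired fit. Leaving out any 1 of the 8 libraries took the adjusted p above the threshold, to between 0.0666 (without KO Th17 replicate 2) and 0.177 (without WT Th22 replicate 2), with the log2 fold change between -0.38 and -0.31.

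Lamp2 and Lipa passed only with pairing. Lamp2, the receptor of chaperone-mediated autophagy among its roles, stood at 45.0 and 45.1 CPM in WT Th17, 41.5 and 41.4 in KO Th17, 50.5 and 48.5 in WT Th22 and 47.9 and 47.2 in KO Th22. Its log2 fold change was 0.17 ± 0.06, with an adjusted p of 0.246 unpaired and 0.0492 paired. Lipa, the acid lipase that frees cholesterol from esters, stood at 11.2 and 12.3 CPM in WT Th17, 11.2 and 9.49 in KO Th17, 13.3 and 13.7 in WT Th22 and 13.4 and 12.1 in KO Th22. The sides overlapped at KO Th22 replicate 2, and the log2 fold change was 0.25 ± 0.09, with an adjusted p of 0.229 unpaired and 0.0287 paired. Cd63, a tetraspanin of late endosomes and secretory granules, stood at 23.5 and 18.6 CPM in WT Th17, 17.6 and 28.8 in KO Th17, 17.6 and 13.6 in WT Th22 and 11.6 and 18.6 in KO Th22. Each Th22 library was below the Th17 library of its genotype and number, with a log2 fold change of -0.52 ± 0.20 and an adjusted p of 0.260 unpaired and 0.000491 paired.

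**Figure D3:**
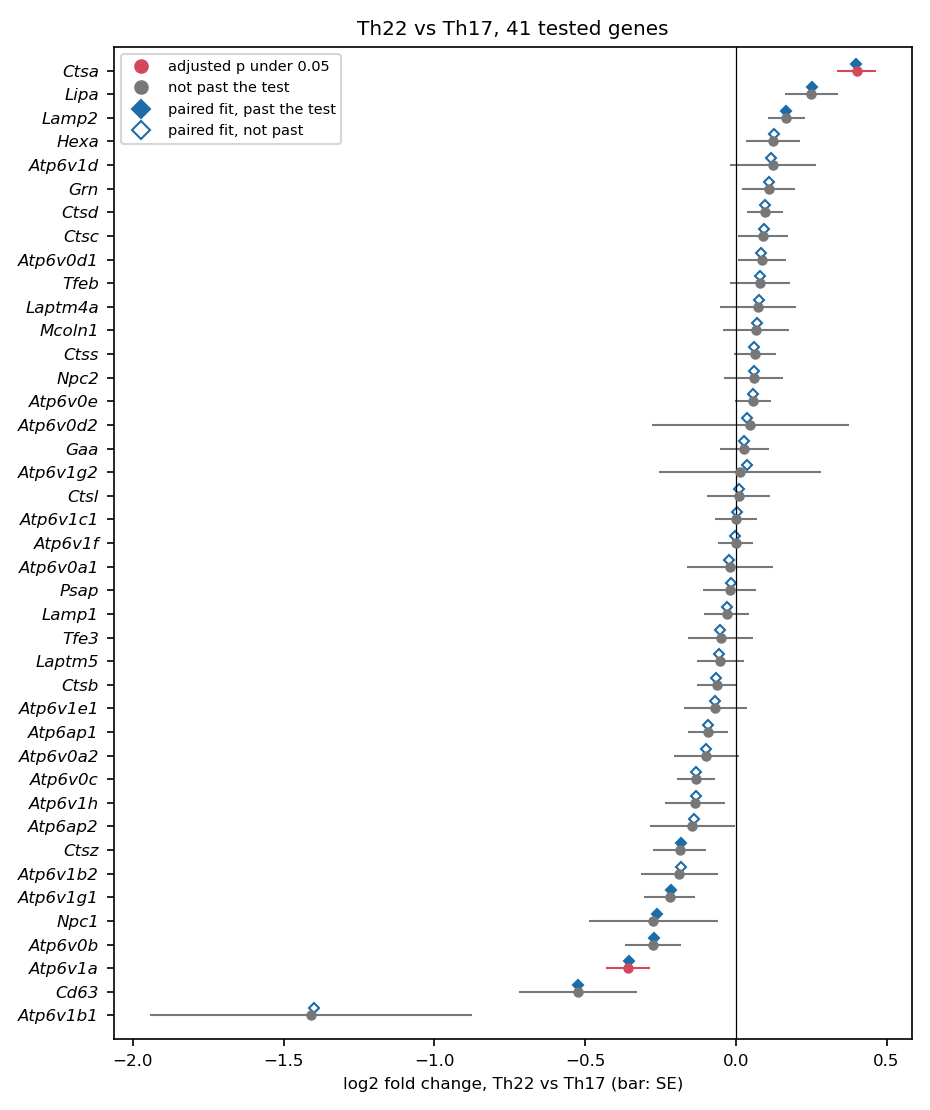
Log2 fold change of Th22 over Th17, over both genotypes, for the 41 tested members: circles with standard error bars for the unpaired fit, red where past the test, and diamonds for the paired fit, filled where past it. The paired and unpaired values nearly coincide, while 2 circles and 9 diamonds are past the test, with Ctsa at 0.40 and Cd63 at -0.52 on opposite sides.

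The V-ATPase and the named lysosomal genes had medians of different sign between Th22 and Th17. The 19 tested V-ATPase genes had 6 positive and 13 negative log2 fold changes (median -0.09), and the 22 named lysosomal genes 14 positive and 8 negative (median 0.06). Scaled by library totals alone, the medians were -0.18 and -0.03, and that of all genes was -0.09. Under both scalings the V-ATPase median lay below that of all genes and the named lysosomal median above it, although the latter was positive under one and negative under the other. Within WT and within KO the unpaired test called no member (0.149% and 0.119% of all genes called), and DESeq2 called none (1.09% and 1.35%). An unadjusted p under 0.05 was reached by 2 members (4.88%) in WT, against 8.82% of all genes, and by 5 (12.2%) in KO, against 10.8%. The paired fit called 7 members in WT (12.9% of all genes) and 13 in KO (16.9%). Ctsa was higher, and Cd63, Atp6v1a and Atp6v0b were lower, in both. Atp6v0d2 was called in KO, at 0.25 ± 0.07 (adjusted p = 0.0312), and not in WT, and the difference between genotypes had an adjusted p of 1.0 in the unpaired interaction test.

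The replicates of a group were not alike for many members. For 13 of the 41 (31.7%, against 20.2% of all genes) replicate 2 exceeded replicate 1 in WT, and replicate 1 exceeded replicate 2 in KO, in both polarizations. These were Atp6ap2, Atp6v0d2, Atp6v1b2, Atp6v1h, Ctsl, Hexa, Lipa, Npc1, Psap, Grn, Tfe3, Laptm5 and Laptm4a. The opposite pattern held for Ctsa, Ctsz and Cd63 (7.32%, against 20.6% of all genes). Npc1, the cholesterol exporter of the lysosomal membrane, showed it plainly, with 21.8 and 33.4 CPM in WT Th17, 19.9 and 23.9 in WT Th22, 34.9 and 21.3 in KO Th17 and 30.4 and 18.2 in KO Th22. The libraries on the high side were replicate 2 of WT, with medians of 3847 and 3679 UMIs per cell against 2489 and 2627 in replicate 1, and replicate 1 of KO, with 2430 and 4142 against 2354 and 3670 in replicate 2. The part of depth in this pattern was not tested.

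The levels of the members were then read in each of the 12 clusters that the authors deposited. These levels are a description, since the clusters were made from the expression of these cells. Atp6v0d2 had its highest level in cluster 0, the largest with 39805 cells, at 101 CPM on average over the 8 libraries against 42.9 in the other clusters. The ratio was 2.36. With 1 CPM added to both means, it ranked number 2 of 6047 genes at 10 CPM or more in the cluster. The lead of Atp6v0d2 in cluster 0 was known when the members were chosen, so this rank is no independent result. In shares of cells with an Atp6v0d2 UMI after thinning, the lead did not hold in every library. Cluster 2 exceeded cluster 0 in WT Th22 replicate 2, at 14.6% against 14.1%. The same held in KO Th22, at 11.4% against 9.45% in replicate 1 and 5.18% against 4.11% in replicate 2. In WT Th22 replicate 1 and in the Th17 libraries cluster 0 had the larger share. Atp6v0d2 fell to 18.3 CPM in cluster 1, 17.9 in cluster 7 and 12.4 in cluster 11, a range of 8.18 times. In cluster 0 it stood at 145 and 186 CPM in WT Th17, 117 and 129 in WT Th22, 80.3 and 36.0 in KO Th17 and 78.0 and 37.5 in KO Th22. All KO libraries were lower there, with a log2 fold change of -1.29 ± 0.28 and an adjusted p of 0.0587.

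**Figure D4:**
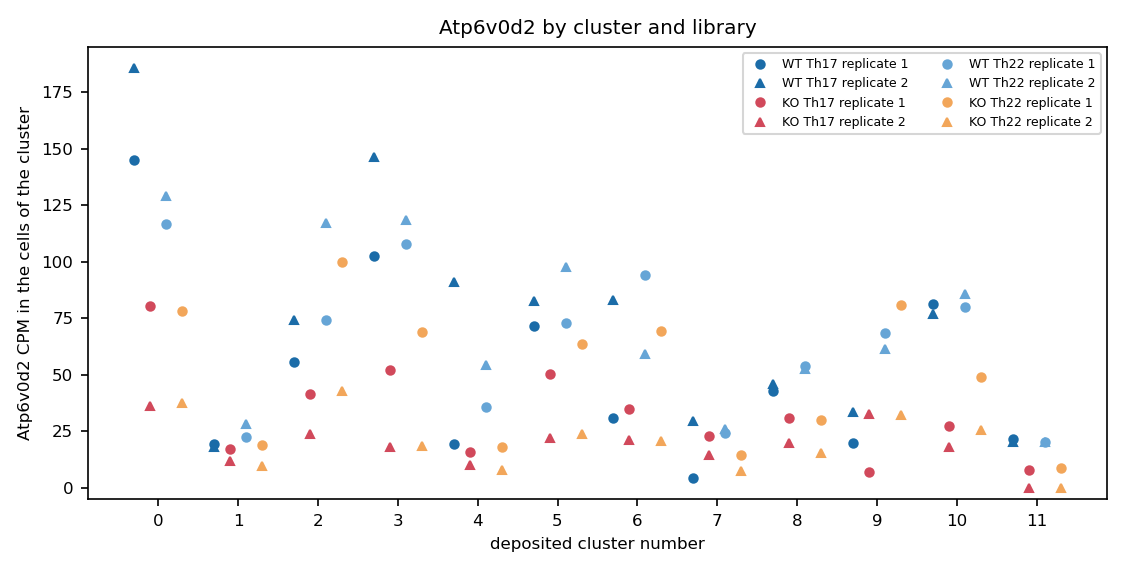
Atp6v0d2 in CPM in each deposited cluster and library, with circles for replicate 1, triangles for replicate 2, blues for WT and red and orange for KO. Clusters 10 and 11 had under 50 cells in some libraries and were not tested; cluster 0 holds the highest point, WT Th17 replicate 2 at 186 CPM, and its 4 KO points lie under its 4 WT points.

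Ctsd had another distribution, with 199 CPM in cluster 7 and 184 in cluster 6 against 58.1 in cluster 9. Cluster 8 was highest for Npc2 (1226 CPM), Atp6v0b (224), Atp6v0c (276) and Cd63 (32.6). Cluster 6 led for Atp6v1a (29.4), Laptm5 (494), which lowers T cell receptor levels by sending them to lysosomes, and Atp6v0e (257). Cluster 9 was lowest for the 7 cathepsins and for Gaa, Hexa and Lipa, with 21.1 CPM of Ctsa against 56.1 in cluster 7 and 3.11 of Lipa against 16.5 in cluster 8. Its cells had the lowest median depth, 1912 UMIs, and the part of depth was not tested.

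KO and WT were compared within the 10 clusters that had at least 50 cells in each library, in the unpaired fit of 4 against 4 libraries. Cluster 1, with 29365 cells, had 6 members called of 40, with 7.43% of all genes called there. Atp6v0b (0.44 ± 0.09, adjusted p = 0.00870), Ctsc (0.49 ± 0.11, 0.0190), Ctsz (0.30 ± 0.08, 0.0331), Ctsd (0.29 ± 0.07, 0.0288) and Lamp1 (0.29 ± 0.07, 0.0296) were higher in KO in edgeR's test, and Npc2 (-0.38 ± 0.10, 0.0384) was lower. Atp6v0b in that cluster stood at 129 and 137 CPM in WT Th17, 132 and 119 in WT Th22, 214 and 172 in KO Th17 and 172 and 148 in KO Th22. All KO libraries were above all WT libraries. The count in cluster 1 was 1 without replicate 1 or without replicate 2 of WT Th17, 3 without KO Th17 replicate 1 and 0 without WT Th22 replicate 2.

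Cluster 2 had 4 members called of 40, with 2.40% of all genes called. Ctsc (0.67 ± 0.13, adjusted p = 0.0153), Ctsz (0.41 ± 0.09, 0.0301) and Atp6v0b (0.39 ± 0.08, 0.0183) were higher in KO, and Ctss (-0.38 ± 0.08, 0.0248) was lower. Ctss in that cluster stood at 88.3, 87.4, 89.2 and 87.7 CPM in the WT libraries and 66.4, 68.4, 66.3 and 69.1 in the KO libraries, Th17 first. The 2 genotypes formed separate narrow ranges. The count in cluster 2 was 0 without WT Th17 replicate 1 or either WT Th22 library, 1 without WT Th17 replicate 2 and 2 without either KO Th17 library. Ctsc in cluster 2 stood at 10.4 to 13.9 CPM in WT and 17.6 to 20.3 in KO.

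Cluster 5 had 1 call, Atp6v0b at 0.63 ± 0.14 (adjusted p = 0.0359, 0.210% of all genes called). Cluster 8 had 1, Atp6v0d2 at -1.05 ± 0.23 (adjusted p = 0.0261, 0.381% called), where WT stood at 42.9 to 54.0 CPM and KO at 15.2 to 30.8. Each of these calls was lost without any 1 of the 4 WT libraries. Atp6v0b in cluster 5 was also lost without replicate 1 of KO Th17 or of KO Th22, and Atp6v0d2 in cluster 8 without KO Th22 replicate 2. Without KO Th17 replicate 2, cluster 8 had 2 calls. No member was called in clusters 0, 3, 4, 6, 7 and 9, where 1.23%, 0.429%, 0.818%, 0.380%, 0.247% and 0.227% of all genes were. The median fold change of the members ran from -0.05 in cluster 4 to 0.11 in cluster 6. Same-numbered Th17 and Th22 libraries deviated together, and treating each such pair as 1 sample, by summing its counts, left no member called in any of the 10 clusters. In that fit 0.0161%, 1.63%, 0.295%, 0.0474%, 0.329%, 0.0906%, 0.0352%, 0.139%, 0.113% and 0.00% of all genes were called in clusters 0 to 9. Atp6v0b and Ctsc in cluster 1 then had adjusted p of 0.0827 and 0.132, and the other 10 calls between 0.146 and 0.351. The replicate block, which matches same-numbered KO and WT libraries, called Atp6v0b (adjusted p = 0.0257) and Ctsc (0.0488) in cluster 1 (3.90% of all genes called). In cluster 8 it called Atp6v0d2 (0.0371, with 0.305% of all genes called). None was called with the block in the others, where 0.110% (cluster 0), 0.923% (2), 0.0511% (3), 0.524% (4), 0.180% (5), 0.149% (6), 0.156% (7) and 0.273% (9) of all genes were.

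The signs were alike between clusters for several members. Atp6v0b, Atp6v0c, Ctsd and Ctsz were positive in 10 of 10 tested clusters and Ctsc, Hexa and Atp6v1a in 9 of 9, while Atp6v0d2, Atp6v1d, Ctss and Npc2 were negative in 10 of 10. The clusters come from the same 8 libraries, so these are not independent repeats.

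**Figure D5:**
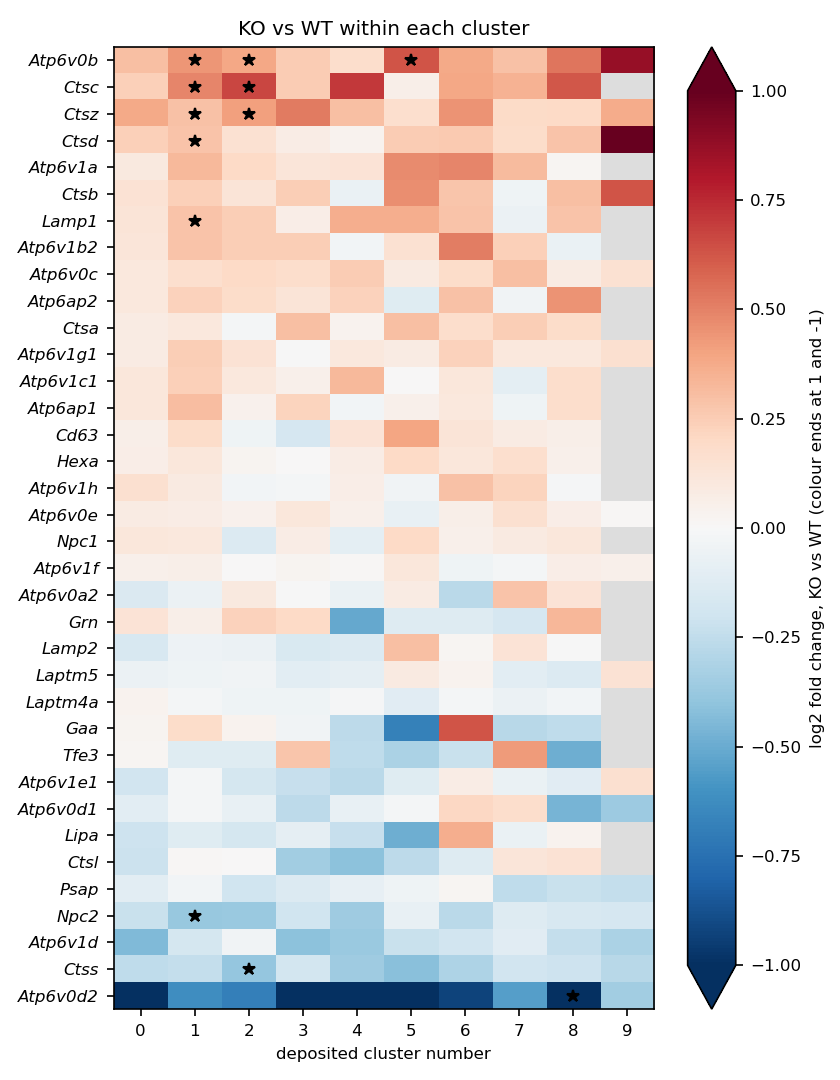
Log2 fold change of KO over WT within each of 10 deposited clusters for the 36 members tested in at least 9 of them, red for higher in KO, blue for lower, grey for not tested and a star for an adjusted p under 0.05. The 12 stars lie in clusters 1, 2, 5 and 8, Atp6v0b is red in every column and Atp6v0d2 is blue in every column, down to -2.02 in cluster 4.

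Between Th22 and Th17 within clusters, Ctsa was higher in Th22 in cluster 1 (0.39 ± 0.07, adjusted p = 0.0124, 3.07% of all genes called), cluster 2 (0.49 ± 0.10, 0.0159, 2.26% called) and cluster 8 (0.90 ± 0.22, 0.0217, 1.69% called). In cluster 2 it stood at 32.4 to 37.4 CPM in the 4 Th17 libraries and 47.8 to 48.9 in the 4 Th22 libraries, with no overlap. Cd63 was lower in Th22 in cluster 1 (-0.59 ± 0.13, adjusted p = 0.0311). No other member was called in any of the 10 clusters, where 0.701% (cluster 0), 0.572% (3), 0.396% (4), 0.255% (5), 0.434% (6), 0.481% (7) and 0.364% (9) of all genes were. Ctsa missed the threshold without WT Th22 replicate 2 in cluster 1 (adjusted p = 0.0676), and in cluster 2 without either WT Th22 library (0.0625 and 0.0869) or WT Th17 replicate 2 (0.0654). In cluster 8 it did so without replicate 1 of KO Th17 (0.105), replicate 2 of KO Th22 (0.157), replicate 2 of WT Th17 (0.0599) or replicate 2 of WT Th22 (0.0687). Cd63 in cluster 1 missed it without either KO Th17 library (0.0513 and 0.0929), KO Th22 replicate 1 (0.0523), WT Th17 replicate 1 (0.139) or WT Th22 replicate 2 (0.124).

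The paired fit kept these calls and made others. In cluster 0 it called Ctsa (0.36) higher and Cd63 (-0.60), Atp6v1a (-0.45), Npc1 (-0.42), Atp6v0b (-0.35) and Atp6v1g1 (-0.22) lower in Th22, 6 of 40 members, with 9.80% of all genes called. It called 4 members in cluster 1 (8.21% of all genes), 5 in cluster 2 (6.85%), 1 each in clusters 5 and 6 (1.23% and 2.22%) and 2 in cluster 8 (4.50%). Among these was Atp6v0d2 in cluster 2, higher in Th22 at 0.77 (adjusted p = 0.000218). None was called in clusters 3, 4, 7 and 9 (4.06%, 1.53%, 1.47% and 0.409%).

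The share of the members' transcripts in cells with myeloid marker UMIs was measured. The 890 cells with at least 2 such UMIs held 1.39% of all UMIs and 1.52% of those of Ctsc, 1.43% of Ctsa, 1.21% of Atp6v0d2, 1.90% of Ctsd and 2.35% of Cd63, the highest share of any tested member. They made up 0.433% to 1.82% of the cells of a library. Most myeloid marker UMIs were of Cd68. This cut, and the fits without these cells, therefore cannot tell myeloid cells from other cells with Cd68.

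Beyond the members, 8 lists of lysosome-related genes held 160 genes, of which 151 were tested. In KO against WT none was higher and 1 was lower, Gpr65 itself, where 2.93% of all genes were called. The list medians in KO against WT were 0.07 for 10 V-ATPase assembly factors and subunits under other names, -0.02 for 40 other hydrolases and -0.07 for 30 other membrane proteins. They were 0.05 for 22 genes that anchor, activate or restrain mTORC1 at the lysosome, and -0.02 for 25 autophagy genes. For 16 genes of hydrolase transport the median was 0.11, and for 5 MiT/TFE and related regulators -0.02, against -0.00 for all genes. Of the 30 membrane proteins, 7 were positive.

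Between Th22 and Th17 the unpaired fit, which called 1.94% of all genes, called 1 gene of these lists higher, Dnase2a, the lysosomal DNase, at 6.49 CPM in Th17 and 10.1 in Th22 (0.63 ± 0.13, adjusted p = 0.0441), and 1 lower, Gpr65 (-0.54 ± 0.09, 0.0246). The paired fit called 22 of 151 (14.6%, against 11.9% of all genes), 5 higher and 17 lower in Th22. The higher ones included the protease Ctsw of cytotoxic cells (0.50 ± 0.05, adjusted p = 0.000179) and the glycoprotein hydrolase Aga (0.41 ± 0.06, 0.00223). The hydrolases went both ways. Of 40 tested, 4 were called higher and 3 lower, the lower ones being Galc (-0.42), Tpp1 (-0.21) and Acp5 (-0.21). The summed gamma-delta and cytotoxic markers were 29.8 to 52.6 CPM in Th17 and 35.7 to 69.7 in Th22, and their part in the value of Ctsw was not tested. Of the 22 genes of mTORC1 anchoring and control, 6 were lower and none higher. Sesn2 stood at -0.48 ± 0.06 (0.000838), Castor1 at -0.39 ± 0.08 (0.0134) and Rheb at -0.22 ± 0.06 (0.0448). Sesn2 and Castor1 restrain mTORC1 and Rheb activates it, so the lower genes mix inhibitors with an activator. The autophagy receptor Sqstm1 (-0.38 ± 0.06, 0.00212), Igf2r, a receptor that carries hydrolases to the lysosome (-0.35 ± 0.06, 0.00394), and the V-ATPase assembly factor Ccdc115 (-0.28 ± 0.06, 0.0132) were also lower.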

How the data were processed

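Single-cell RNA was counted in 8 libraries, 2 in each of 4 groups taken from the labels. The authors deposited UMI counts per gene and cell, unnormalized, as the values show. A deposited cell table gave, per cell, the library, a cluster number and the percent of UMIs from mitochondrial genes, as the authors computed it. Cell Ranger 5.0.1, Seurat and mm10 are named per the submitters' processing notes; the way cell limits and clusters were set was not given in these sources. The files hold 0 columns of other series.

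Cells under 500 genes or over 10% mitochondrial UMIs were dropped, which left 101688 of 104660. No doublet caller was run; as an alternative, the 8% of cells with most UMIs per library (8131 cells) were left out. Counts were summed per library, or per library and cluster, and tested in edgeR 4.0.16 (limma 3.58.1, R 4.3.3) by its quasi-likelihood test, with TMM factors, filterByExpr on the 4 groups and Benjamini-Hochberg adjustment over all genes tested, at 0.05. The script was tested on simulated data. An additive model of genotype and polarization gave the comparisons over both (5 residual degrees of freedom), and a model with 1 mean per group the others (4). CPM were computed here after TMM scaling. The test was made with DESeq2 1.42.0 as an alternative. Shares of cells were taken after thinning each cell to 1500 UMIs, which left out 8642 shallower cells. Depth limits the precision of members under about 10 CPM most.

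Deviations of same-numbered libraries from their group means correlated across 13412 genes at 0.234 between Th17 and Th22 in WT and 0.566 in KO, and at -0.205 and -0.247 between KO and WT within Th17 and Th22. Numbers were therefore taken to pair libraries between polarizations, from these correlations and not from the labels. For KO against WT, the replicate block instead matched same-numbered KO and WT libraries within a polarization. The negative correlations between KO and WT give no ground for that matching. Identifiers and positions come from matching the 44 symbols to GENCODE M21 on mm10, and promoters from RefSeq.

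The members and lists were chosen with earlier results of these data known. Values in every library are given for members called in any of 7 comparisons, for the 5 members of smallest unadjusted p in the comparisons over both, and for Atp6v0d2, Atp6v0d1, Lamp1, Ctsd, Tfeb, Tfe3 and Mcoln1. Other members named with values, Tcirg1 and the cluster calls were chosen after their values were seen. Of the list genes called, only some are named.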

Additional observations from a re-analysis of the deposited data

How the results depend on the processing

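The number of members called changed with the processing, and the direction of no called member did. In KO against WT over both polarizations (1 member), 5 were called with DESeq2 and 0 when the cells richest in UMIs were left out, with cells thinned to 1500 UMIs, with the replicate block, or with libraries of 1 genotype and number summed. Leaving out 1 library gave 0 to 2. In Th22 against Th17 over both genotypes (2 members), 1 was called with library totals and no TMM, with no filter on low counts, when the cells richest in UMIs were left out, with thinned cells, or with median UMIs as a covariate. Leaving out 1 library gave 0 to 1, and the replicate block 9. The replicate block called 7 members in WT and 13 in KO for Th22 against Th17, where the unpaired fit called 0. In KO against WT within each polarization and in the interaction, every alternative run gave 0 members. Crossing the numbers between KO and WT, an alternative added after the data were seen, called 5 members over both polarizations and 0 in each, with 873, 128 and 60 genes in all.

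The alternatives within clusters were also added after the data were seen. In KO against WT, leaving out 1 library gave 0 to 2 members called within cluster 0, 0 to 6 in cluster 1, 0 to 4 in cluster 2, 0 to 1 in clusters 3, 4 and 5, and 0 to 2 in cluster 8. The replicate block gave 2 in cluster 1, 0 in clusters 2 and 5 and 1 in cluster 8 (reported values 6, 4, 1 and 1), and summed libraries of 1 genotype and number gave 0 in each. In Th22 against Th17, leaving out 1 library gave 0 to 2 in clusters 1 and 8 and 0 to 1 in cluster 2 (reported values 2, 1 and 1). The replicate block gave 6 in cluster 0, 4 in cluster 1, 5 in cluster 2, 1 in clusters 5 and 6 and 2 in cluster 8. Over the alternatives, all genes called numbered 6 to 942 for KO against WT over both polarizations (reported value 393), 54 to 1592 for Th22 against Th17 over both genotypes (260), 2 to 206 and 1 to 143 for KO against WT in Th17 and Th22 (25 and 20), 0 to 1733 and 0 to 2269 for Th22 against Th17 in WT and KO (20 and 16) and 0 to 12 for the interaction (0). Tfeb and Mcoln1 rested on 1928 and 2583 UMIs in all, and the smallest difference that could be called was not computed.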
